A study of Rattus norvegicus with 3 samples.

Results

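The glucose and monocarboxylate transporters are the membrane carriers that move fuel into and between brain cells. Those described are Slc2a1, Slc2a3, Slc2a5, Slc2a6, Slc2a8, Slc16a1, Slc16a3, Slc16a7 and Bsg, the rows of the expression files whose gene symbol equals one of these names. All 9 genes were found, each on 1 row, among 30957 genes in all. Of the 9, 8 had a mean of 1 FPKM or more over the rats, as had 14134 genes of the series, and Slc2a3 did not. FPKM is fragments per kilobase of transcript, not of the gene's span, and per 1000000 fragments, so levels of different genes can be set side by side.

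The rats were 3 male Sprague-Dawley animals, numbered 19, 35 and 70, whose motor cortex gave the RNA. They had undergone cerebral ischemia and reperfusion, the interruption and return of the brain's blood supply. All 3 carry the label 8 weeks, which may be an age or a time after the operation, and no label tells from which side of the brain the cortex came. They form a single group without a control group analysed here, so the values say how the transporters were distributed and how far the rats differed, not what ischemia did. The files corresponded to about 15560000, 16460000 and 16050000 fragments in rats 19, 35 and 70, so a level of 1 FPKM stands for 15.6, 16.5 and 16.0 fragments per kilobase. Values of the 3 rats keep this order throughout.

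Glucose reaches neurons through facilitative carriers of the Slc2 (GLUT) family, which work without energy input and are placed in series along the path from blood to cell. GLUT1, the product of Slc2a1, sits in the endothelium of the blood-brain barrier and in astrocytes, and GLUT3, the product of Slc2a3, in neurons. Lactate, pyruvate and ketone bodies cross with protons through the Slc16 (MCT) family: MCT1 from Slc16a1 in endothelium, astrocytes and oligodendrocytes, MCT4 from Slc16a3 in astrocytes and glycolytic cells, and MCT2 from Slc16a7 in neurons. MCT1 and MCT4 need basigin, the product of Bsg, to reach the plasma membrane.

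Levels of cell type markers differed widely between the rats, and these values stand beside every result. The 15 neuronal markers, all tested and all lowest in rat 35, summed to 2205, 139.5 and 3485 FPKM. All 14 tested microglia markers were highest in rat 35, with sums of 1512, 3948 and 1080 FPKM over the list. Endothelial markers summed to 274, 409 and 193 FPKM, and 11 of 14 were highest in rat 35 (9 to 10 under other scalings). Astrocyte markers summed to 3898, 1334 and 3283 FPKM, and 11 of 14 were lowest in rat 35. Of all tested genes, 45.4% were highest and 36.5% lowest in rat 35. No detected marker of these 4 lists was at 0 in all rats, although the microglial gene Siglech was at 0.91, 0.92 and 0 FPKM. In bulk tissue, fewer cells of a type and less RNA per cell cannot be told apart, and the part of cell makeup in the transporter values was not tested beyond the offsets given below.

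Bsg was the most abundant gene of the set in every rat, followed by Slc2a1, and Slc2a3 was lowest in every rat. Bsg was at 251.6, 280.4 and 195.8 FPKM (243 ± 43.0, SD, n = 3) and Slc2a1 at 53.4, 92.9 and 67.5 FPKM (71.3 ± 20.03). These levels exceeded those of 98.5% and 93.2% of the tested genes. The ranges of Bsg, Slc2a1 and the genes below them did not overlap. Slc16a1 averaged 27.7 ± 8.62 FPKM, Slc2a5 26.4 ± 20.9 and Slc2a8 20.3 ± 5.13, and the ranges of neighbours overlapped. Within rats, Slc16a1 was above Slc2a8 in 3 of 3, whereas Slc2a5 changed places with both: it ranked number 5 among the members in rats 19 and 70 and number 3 in rat 35. A clear step separated Slc2a8 from Slc2a6 (4.002 ± 1.86 FPKM). Slc2a6, Slc16a3 (2.25 ± 2.30) and Slc16a7 (2.07 ± 1.31) again overlapped.

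**Figure D1:**
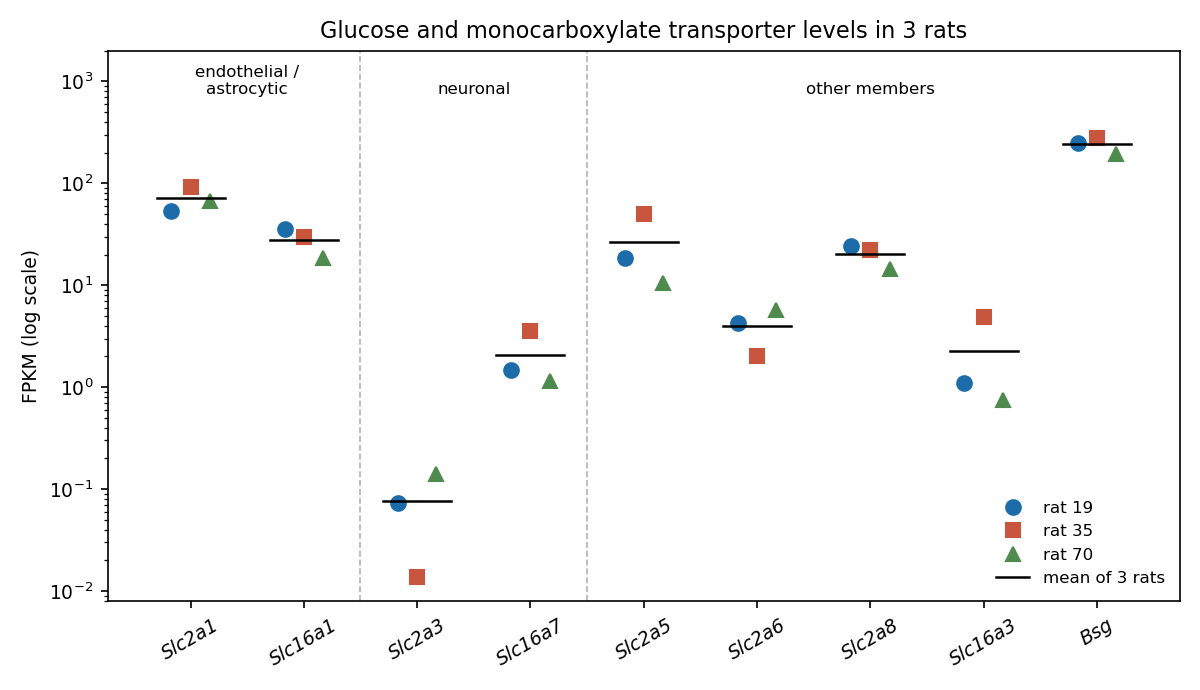
FPKM of the 9 transporter genes in rats 19, 35 and 70 on a log axis, with the mean of 3 rats as a bar, in the 3 groups of genes. Bsg lies between 195.8 and 280.4 FPKM and Slc2a1 between 53.4 and 92.9, while Slc2a3 stays at 0.14 FPKM or less in every rat.

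Between rats, 4 of the 8 members with a mean of 1 FPKM or more differed by more than 2-fold between the highest and the lowest rat (on FPKM + 1). Among all genes tested this share was 42.5%, so the transporters were near the background. Rat 35 was the highest in 5 of the 8, against 45.4% of all genes, rat 19 in 2, against 24.8%, and rat 70 the lowest in 6, against 44.2%. Of the 8, 3 were both over 2-fold apart and highest in rat 35 (Slc2a5, Slc16a3 and Slc16a7), against 20.6% of all genes. Slc2a6, also over 2-fold apart, was lowest there. Without rat 35, none of the tested members differed by more than 2-fold, against 11.1% of all genes. Without rat 70, 2 of the 8 did, Slc2a5 and Slc16a3, against 26.0% of all genes. The call of Slc16a7 ended under median-of-ratios scaling, where its range was 1.98-fold.

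Slc2a1 and Slc16a1 were grouped as endothelial and astrocytic genes, and Slc2a3 and Slc16a7 as neuronal genes, by cells they are known from. The other 5 were placed in neither group, although Slc16a3 is also known from astrocytes and Slc2a8 from neurons. Slc2a1 and Slc16a1 together summed to 88.8, 122 and 85.9 FPKM, and the other 5 genes to 299.7, 359.7 and 227 FPKM, mostly Bsg. No sum is given for the neuronal genes, because the Slc2a3 row may not be the level of its message. The median deviation from the 3-rat mean, in log2(FPKM + 1), was 0.01, 0.27 and -0.28 for the endothelial and astrocytic genes and 0.07, 0.22 and -0.43 for the others. Over all genes tested it was 0.02, 0.06 and -0.09. As deposited, both groups had their highest median in rat 35 and their lowest in rat 70, but after rescaling without mitochondrial genes the highest median of the other genes was in rat 19 (0.12, 0.07 and -0.34).

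Coordinates below are in Rnor 6.0, as the files give them. The members of the endothelial and astrocytic group did not share an order of rats. Slc2a1 (ENSRNOG00000007284, chromosome 5, 138154673 to 138182897, plus strand), encoding GLUT1, was highest in rat 35 (92.9 FPKM) and lowest in rat 19 (53.4), a 1.74-fold range in FPKM. Slc16a1 (ENSRNOG00000019996, chromosome 2, 207108552 to 207128554, plus strand), encoding MCT1, was at 35.4, 29.5 and 18.4 FPKM, highest in rat 19 and lowest in rat 70, a 1.92-fold range. Both orders held under each of 3 other scalings. Relative to the 14 endothelial markers, whose median deviation was -0.06, 0.58 and -0.56, the offset of Slc2a1 was -0.31, -0.16 and 0.52 and that of Slc16a1 0.45, -0.45 and 0.04 (log2). Slc2a1 was thus high relative to endothelial markers in rat 70 and Slc16a1 in rat 19. The ranges of these offsets were 0.83 and 0.897, beside 1.74 and 1.88 from astrocyte markers, and 31.6% and 35.4% of all tested genes lay closer to the endothelial markers. For Slc2a1 this order turned without rat 35, where the range was 0.99 from endothelial and 0.037 from astrocyte markers. For Slc16a1 both ranges were 0.72 without rat 70, and the endothelial one was 0.25 without rat 35. For Slc2a1 the endothelial one was 0.32 without rat 70. Relative to oligodendrocyte markers, the offset of Slc16a1 was 0.47, 0.38 and -0.93, with a range of 1.40 that was 0.39 without rat 70. The leading endothelial marker Cldn5, a tight junction gene, was at 80.3, 131 and 63.7 FPKM, and the amino acid carrier gene Slc7a5, also of the barrier, at 34.5, 21.9 and 19.5 FPKM, in the order of Slc16a1.

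Slc16a1 was the main message of the 3 lactate and pyruvate carriers among the members. It made up 93.2%, 77.7% and 90.6% of the summed FPKM of Slc16a1, Slc16a3 and Slc16a7. The sum itself was 38.0 FPKM in rats 19 and 35 and 20.3 FPKM in rat 70. With nearly equal sums, rat 35 held less Slc16a1 and more of both other carriers than rat 19. The ratio of Slc16a1 to Slc16a7 was 23.9, 8.26 and 15.9, and that of Slc16a1 to Slc16a3 was 31.9, 6.02 and 24.3. Bsg exceeded the sum of Slc16a1 and Slc16a3, its client carriers, by 6.90, 8.16 and 10.2 times. All these ratios were above 1 in 3 of 3 rats. An exact permutation test, two-sided and by sign flips, on log2(FPKM + 1) ratios gave p = 0.25 for each of these 3 pairs, which is the smallest p that 3 rats allow (0.25 after Benjamini-Hochberg adjustment over 4 pairs, of which Slc2a1 with Slc2a3 is not reported because of the Slc2a3 row described below).

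**Figure D2:**
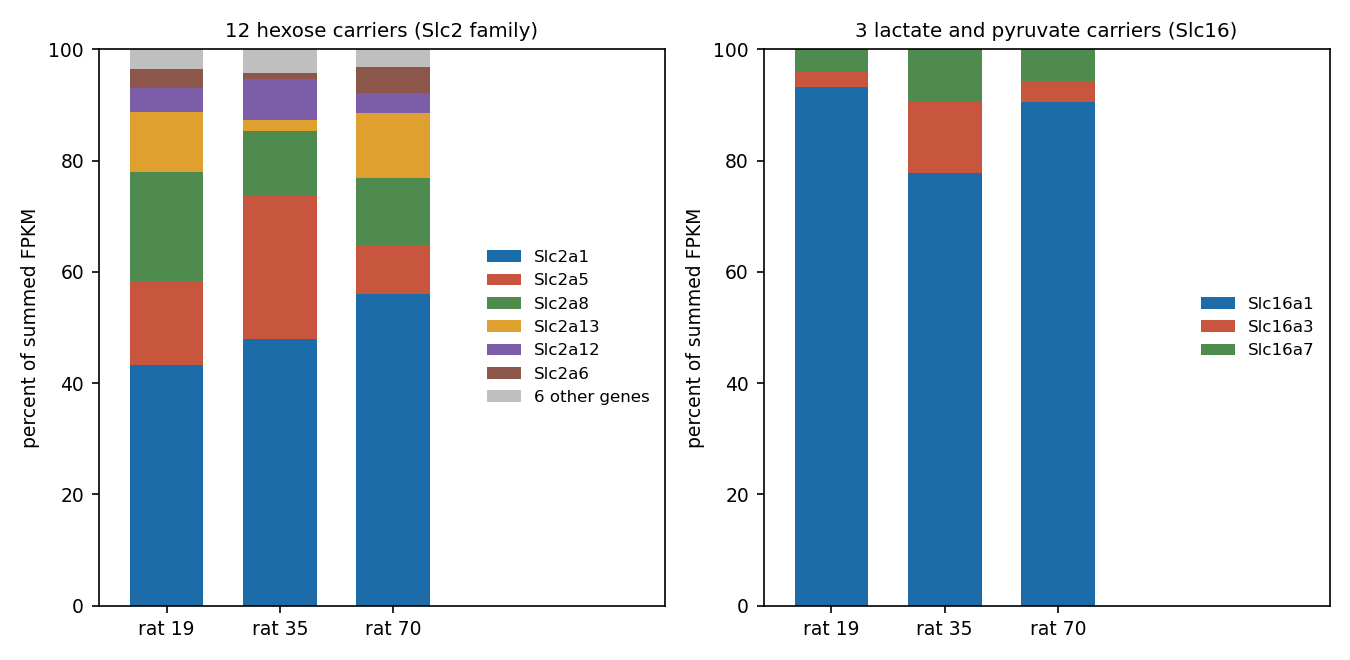
Share of each gene in the summed FPKM of 12 hexose carriers of the Slc2 family (left) and of 3 lactate and pyruvate carriers (right), as stacked percent in rats 19, 35 and 70. In rat 35, Slc2a5 takes 25.8% of the hexose carriers, and Slc16a3 and Slc16a7 take 12.9% and 9.40% of the lactate and pyruvate carriers.

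Slc16a7 did not have the order of the neuronal markers, whose median deviation was 0.98, -2.72 and 1.70. Slc16a7 (ENSRNOG00000007839, chromosome 7, 68446193 to 68549763, minus strand), encoding the high-affinity lactate and pyruvate carrier MCT2, was at 1.48, 3.57 and 1.16 FPKM, highest in rat 35 and lowest in rat 70 (3.08-fold in FPKM). These values rest on about 23.0, 58.8 and 18.6 fragments per kilobase. Its offset from the 15 neuronal markers was -1.20, 3.37 and -2.13 (log2), a range of 5.50, and 81.9% of all tested genes lay closer to these markers. Without rat 35 the range was 0.87. Snap25, the most abundant neuronal marker and a synaptic vesicle fusion gene, was at 383, 12.2 and 564.5 FPKM, lowest in the rat where Slc16a7 was highest. Without rat 35, Slc16a7 differed by only 0.20 (log2) between rats 19 and 70. Embigin (Emb), the membrane partner of MCT2, was at 15.3, 28.8 and 14.6 FPKM, also highest in rat 35. It was named after its values were seen.

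Slc2a3 (ENSRNOG00000008376), encoding the neuronal glucose carrier GLUT3, was near 0 in all libraries, at 0.073, 0.014 and 0.14 FPKM. Multiplied by each library's depth, these values stood in the ratio 5 to 1 to 10, as whole fragments would, so the row may rest on as few as 5, 1 and 10 fragments. Its annotated span on chromosome 4, from 155408233 to 155631856 on the minus strand (Rnor 6.0, as the files give it), covers 223.6 kb and overlaps Gdf3 on the same strand and Dppa3 and Nanog on the opposite one. Every other member spans 103.6 kb or less. Genes that all cells use (Hprt1, Rps6, Rpl8 and Hsp90aa1) were also listed at 0 in the 3 rats. The row is therefore given as listed and not as the level of GLUT3 message, no fold is drawn from it, and the part of the gene model in these values was not tested. Its order of rats, lowest in rat 35 and highest in rat 70, was that of the neuronal markers, on these few fragments.

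Among the other members, Slc2a5 followed the microglia markers most closely. Slc2a5 (ENSRNOG00000017693, chromosome 5, 167141875 to 167174310, plus strand) encodes GLUT5, a fructose carrier known in the brain from microglia. It was at 18.6, 50.0 and 10.5 FPKM, 4.75-fold between rats 35 and 70, with rat 35 far above the other two. Its deviations, -0.21, 1.18 and -0.97, lay beside those of 14 microglia markers, -0.29, 1.19 and -1.02. The offset was 0.09, -0.01 and 0.04, a range of 0.09, and 0.149% of all tested genes lay closer to this list. Leaving out 1 rat, the range was 0.010 (without rat 35) to 0.10. Without rat 35 the range of Slc2a5 was 0.77 (log2) and its order between rats 19 and 70 was kept. The complement genes C1qa and C1qb, the most abundant of the list, were at 310.1, 761 and 300.3 FPKM and at 296, 699.8 and 224 FPKM. Slc2a5 took 15.1%, 25.8% and 8.72% of the FPKM of the Slc2 family, in which Slc2a1 took 43.3%, 48.0% and 56.0%. These shares count Slc2a3 as listed.

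Slc16a3 (ENSRNOG00000036677, chromosome 10, 110138586 to 110148358, plus strand) encodes MCT4, which exports lactate from glycolytic cells. In FPKM its relative range was the widest of the tested members, 6.49-fold. On FPKM + 1 it was 3.36-fold, below the 4.43-fold of Slc2a5. Slc16a3 was at 1.11, 4.90 and 0.76 FPKM, or about 17.2, 80.7 and 12.1 fragments per kilobase, with rat 35 apart from the others. Its offset from 14 phagocyte and leukocyte markers was 0.48, -0.66 and 0.18, and 4.10% of all tested genes lay closer to that list. The range of 1.14 was 0.36 without rat 35. The phagocyte list was not the nearest to Slc16a3, whose deviations were -0.41, 1.08 and -0.67. Median deviations of endothelial markers, -0.06, 0.58 and -0.56, lay nearer to these in every rat. Those of microglia markers, -0.29, 1.19 and -1.02, lay nearer in rats 19 and 35. From the astrocyte markers, which were lowest in rat 35 in 11 of 14 cases, the offset of Slc16a3 was -0.70, 1.74 and -1.24, and 91.4% of tested genes lay closer. That range, 2.98, was 0.56 without rat 35. The leading phagocyte genes Apoe and Ctsd were at 2289, 7439 and 2453 FPKM and at 697, 3576 and 466 FPKM. Slc16a3 belongs to the hypoxia response in many tissues. Of 13 tested genes of that response, 3 were highest in rat 35, against 45.4% of all genes, and 8 were lowest there, against 36.5%. The 3 were Hmox1, Adm and P4ha1, of which Hmox1 and P4ha1 were also lowest in rat 70, as Slc16a3 was. The part of hypoxia in the level of Slc16a3 was not tested.

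Slc2a6 ran the other way. The gene (ENSRNOG00000005900) encodes GLUT6, an intracellular hexose carrier, and was at 4.26, 2.03 and 5.71 FPKM, lowest in rat 35 and highest in rat 70. Its offset from the phagocyte and leukocyte markers was 1.03, -2.39 and 1.35 (log2), and 82.5% of tested genes lay closer to that list. The range of 3.74 was 0.25 without rat 35. Part of its span on chromosome 3 (5568321 to 5575136, minus strand) is shared with Cacfd1 on the opposite strand, which was at 6.13, 5.43 and 5.403 FPKM. No source used here says whether counting used strand, so reads of the shared stretch cannot be assigned with certainty.

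Slc2a8 and Bsg differed least in relative terms, with Slc2a1. Slc2a8 (ENSRNOG00000022274, chromosome 3, 12020229 to 12029877, minus strand) encodes GLUT8, an intracellular carrier found in neurons, and was at 24.2, 22.4 and 14.5 FPKM (1.67-fold). Its level in rat 35 was 0.16 above its own mean (log2), where neuronal markers were at -2.72. Bsg (ENSRNOG00000008414, chromosome 7, 12875537 to 12882753, minus strand) had the smallest range, 1.43-fold, and 26.9% of tested genes varied less between the rats (SD of log2). Its offset from endothelial markers was 0.13, -0.36 and 0.27. Rat 35 was highest for Bsg as deposited and under 2 other scalings, but rat 19 was after rescaling without mitochondrial genes (668, 649 and 540 on that scale).

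**Figure D3:**
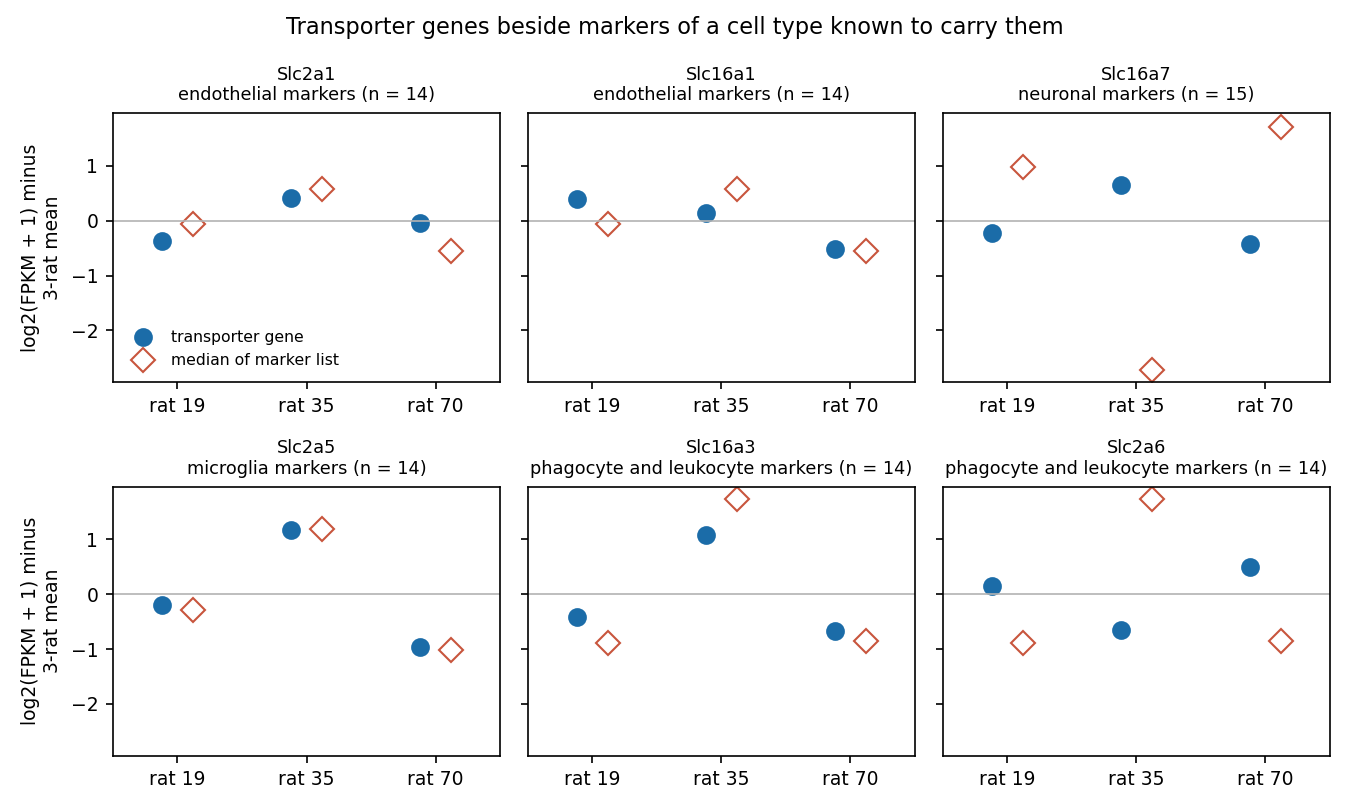
Deviation from the 3-rat mean, in log2(FPKM + 1), of 6 transporter genes (filled circles) and the median of a marker list (open diamonds) in each rat. For Slc2a5 the circles lie within 0.09 of the microglia diamonds in every rat, whereas for Slc16a7 the neuronal diamond falls to -2.72 in rat 35 beside a circle at 0.65.

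The stretches before the transcription start of 5 members are shown because Slc2a5, Slc16a3, Slc16a7 and Bsg were all highest in rat 35 and lowest in rat 70 as deposited, and Slc16a1, which encodes a carrier that Bsg serves, was not. For Bsg this order did not hold without mitochondrial genes. They are the 250 bases upstream of the RefSeq gene start, 5′ to 3′, in build GRCr8, which is not the build of the expression files. Entries were found for 8 of the 9 members. Capitals mark ACGTG, a form of the core that hypoxia-inducible factors bind, on either strand. The palindromic CACGTG therefore counts as a pair of overlapping matches. Other forms of the core were not searched, so a stretch without a match may still hold one. A match does not show that these factors bind there.

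Slc2a5 (chr5:165865929-165866178, plus strand): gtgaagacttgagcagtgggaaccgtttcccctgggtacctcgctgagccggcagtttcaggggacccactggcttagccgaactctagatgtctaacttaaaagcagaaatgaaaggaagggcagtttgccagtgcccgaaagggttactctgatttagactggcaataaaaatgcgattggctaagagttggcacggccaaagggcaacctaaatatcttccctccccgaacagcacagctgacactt

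Slc16a3 (chr10:106712078-106712327, plus strand): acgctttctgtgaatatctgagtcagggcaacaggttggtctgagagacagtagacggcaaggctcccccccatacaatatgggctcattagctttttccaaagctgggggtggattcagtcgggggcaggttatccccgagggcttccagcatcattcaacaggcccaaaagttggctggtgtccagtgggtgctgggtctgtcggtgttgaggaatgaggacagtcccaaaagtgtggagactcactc

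Slc16a7 (chr7:63040399-63040648, minus strand): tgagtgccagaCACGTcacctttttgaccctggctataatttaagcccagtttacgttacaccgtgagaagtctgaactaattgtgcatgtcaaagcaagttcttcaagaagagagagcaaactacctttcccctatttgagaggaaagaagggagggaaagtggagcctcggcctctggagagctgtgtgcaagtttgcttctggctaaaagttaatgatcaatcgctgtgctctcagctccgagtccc

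Bsg (chr7:10651006-10651255, minus strand): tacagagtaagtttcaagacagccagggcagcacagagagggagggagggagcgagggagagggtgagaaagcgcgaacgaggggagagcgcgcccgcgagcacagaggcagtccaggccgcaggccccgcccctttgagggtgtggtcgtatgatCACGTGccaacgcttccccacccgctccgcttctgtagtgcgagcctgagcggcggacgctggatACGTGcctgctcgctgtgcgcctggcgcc

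Slc16a1 (chr2:194812410-194812659, plus strand): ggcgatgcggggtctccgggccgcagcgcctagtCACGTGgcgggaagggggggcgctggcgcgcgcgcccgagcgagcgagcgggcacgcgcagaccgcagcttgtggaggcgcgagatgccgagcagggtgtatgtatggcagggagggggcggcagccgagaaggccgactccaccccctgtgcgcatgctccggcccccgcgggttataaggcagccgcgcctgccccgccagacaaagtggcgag

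Of the stretches printed, those of Slc2a5 and Slc16a3 held no match in this window, that of Slc16a7 held 1, that of Bsg 3 and that of Slc16a1 held 2 overlapping ones. Of those not printed, Slc2a1 had 1, and Slc2a6 and Slc2a8 had none. Among 33469 rat promoters of this length, 16.6% held at least 1 match. CpG dinucleotides numbered 8, 5 and 6 in Slc2a5, Slc16a3 and Slc16a7 and 33 in Slc16a1, against a median of 5 over all promoters (quartiles 2 and 15). Bsg, printed for the same order of rats as Slc2a5, had 23. Slc2a1 had 17, Slc2a6 16 and Slc2a8 14.

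Of 14 other hexose carriers listed, 13 were in the files and 6 reached a mean of 1 FPKM. A further 4 were listed at 0 in all rats, which in these files need not mean absence, since Rps6 and Rpl8, genes of the ribosome, were listed at 0 too. Of the 6, 5 differed over 2-fold, against 42.5% of all genes, and 4 were highest in rat 35, against 45.4%. Slc2a13, a proton-coupled inositol carrier of neurons, was at 13.4, 3.77 and 14.2 FPKM, lowest in rat 35. Slc2a12, encoding GLUT12, was at 5.21, 14.2 and 4.27 FPKM, highest there. The sodium-coupled inositol carrier gene Slc5a11 was at 0.91, 1.08 and 7.95 FPKM and stood out in rat 70. The Slc2 family summed to 123, 193.6 and 120.5 FPKM and was highest in rat 35, the rat with the highest Slc2a1 and Slc2a5.

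Further monocarboxylate carriers and partner proteins numbered 17, of which 13 reached a mean of 1 FPKM. Over 2-fold apart were 6 of these, near the background of 42.5% of all genes. After rescaling to a common sum 8 were, against 45.5% of all genes. Of the 13, 10 were highest in rat 35 (9 after rescaling without mitochondrial genes), against 45.4% of all genes. The mitochondrial pyruvate carrier genes were unequal: Mpc1 was at 103.7, 123 and 104.1 FPKM, while Mpc2 was at 78.8, 39.2 and 56.1 FPKM and lowest in rat 35. Nptn, which encodes neuroplastin, a relative of basigin rich in synapses, was at 105, 52.7 and 137 FPKM.

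Enzymes that use the transported fuels differed among themselves in their order of rats. Of 9 tested lactate and pyruvate enzyme genes, 3 differed over 2-fold, against 42.5% of all genes. Of the 9, 2 were highest in rat 35, against 45.4% of all genes (0 after rescaling without mitochondrial genes). Ldhb, the lactate dehydrogenase subunit that favours pyruvate formation, was at 253, 115 and 363 FPKM, and Ldha, the subunit that favours lactate, at 131, 112 and 96.4 FPKM. Ldha therefore varied 1.36-fold and Ldhb 3.16-fold, with Ldhb lowest in rat 35. The pyruvate kinase gene Pkm stands on 2 rows, at 147.6, 184.7 and 245 FPKM on chromosome 20 and at 118, 90.1 and 171 FPKM on chromosome 8, and such near-identical rows are uncertain. Of 11 tested genes of hexose trapping and glycogen, 6 differed over 2-fold, against 42.5% of all genes, and 4 were highest in rat 35, against 45.4%. The brain hexokinase gene Hk1 was at 93.5, 39.6 and 118 FPKM, and the glycogen phosphorylase genes Pygb and Pygm at 23.3, 34.7 and 41.9 FPKM and at 21.7, 15.6 and 45.0 FPKM. Hk3, a hexokinase of leukocytes singled out after its values were seen, was at 3.04, 34.6 and 2.77 FPKM.

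Regulators of the carriers were highest in rat 35 in 8 of 11 cases (7 under each of 3 other scalings), against 45.4% of all genes. Over 2-fold apart were 6 of them (4 under each of those scalings), against 42.5% of all genes. Txnip, whose product removes GLUT1 from the cell surface, was at 77.9, 172 and 72.1 FPKM. Epas1, encoding the hypoxia-inducible factor HIF2A of endothelium, was at 54.9, 119.97 and 58.2 FPKM. Gipc1, encoding a protein that binds the tail of GLUT1, was at 66.9, 64.3 and 31.9 FPKM, lowest in rat 70. Txnip and Slc2a1 were both highest in rat 35.

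**Figure D4:**
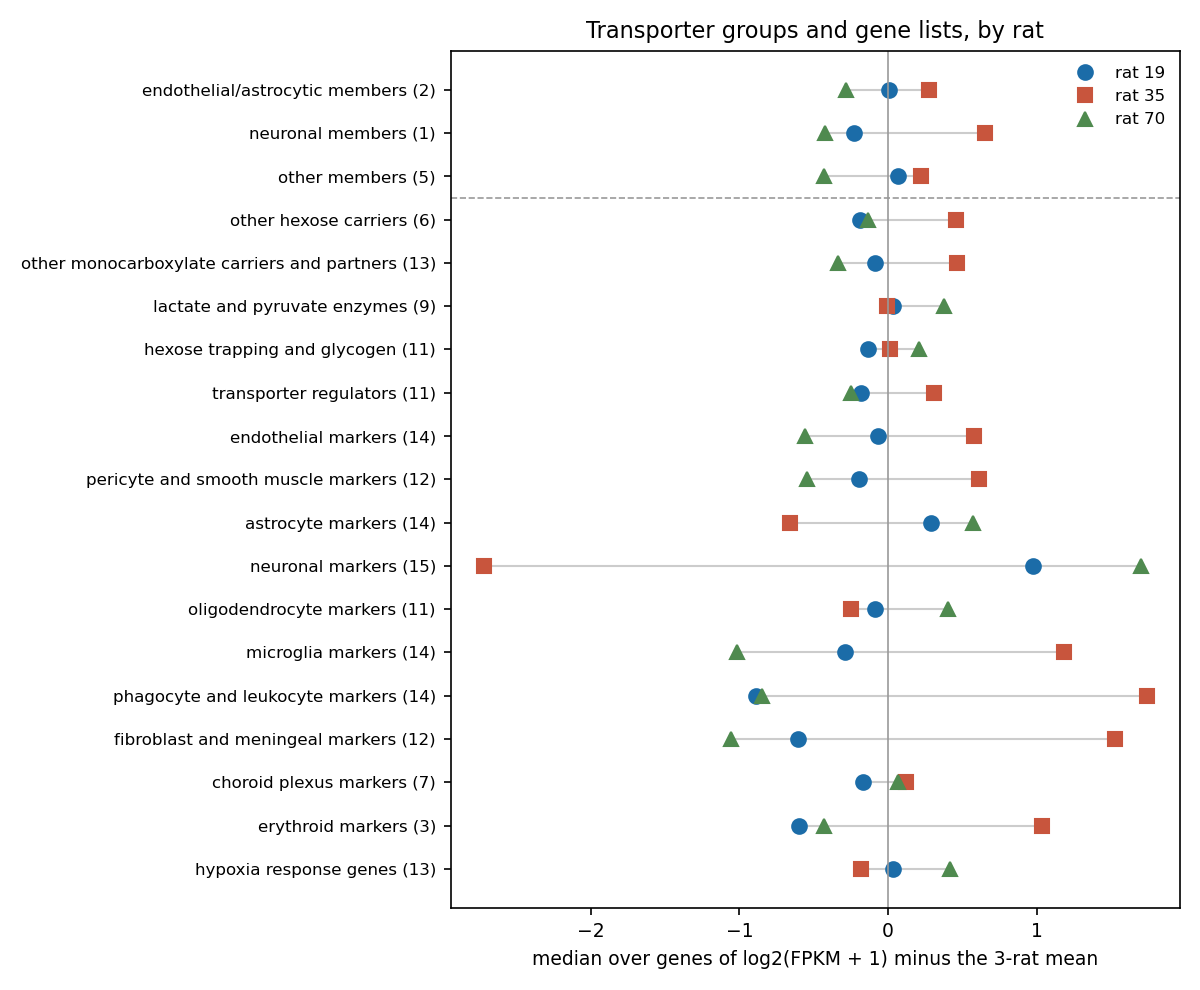
Median over genes of log2(FPKM + 1) minus the 3-rat mean for the 3 transporter groups (above the dashed line) and 16 gene lists, over genes with a mean of 1 FPKM or more, their number in brackets, in rats 19, 35 and 70. The transporter groups, of which the neuronal one is Slc16a7 alone, stay between -0.43 and 0.65, while neuronal markers span -2.72 to 1.70 and microglia markers -1.02 to 1.19.

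Genes most like the leading member of each group were found by the distance between deviations over 3 rats, among 7085 other named genes with a mean of 10 FPKM or more. Slc2a1 was nearest to Bag3, Clcn7 and Eif3h (distances 0.015, 0.021 and 0.029 in log2), Slc16a7 to Smarcd2, Gnb2l1 and Aco1 (0.0066, 0.020 and 0.022), and Bsg to Tardbp, Nbn and Arglu1 (0.0067, 0.0068 and 0.0071). Within a distance of 0.1 lay 34 genes for Slc2a1, 67 for Slc16a7 and 169 for Bsg, so over 3 rats such likeness was common. For Slc16a7 the likeness holds only on this scale, which shrinks its range from 3.08-fold in FPKM to 2.12-fold. Genes at 10 FPKM or more shrink little. Smarcd2, at 21.7, 40.6 and 18.7 FPKM, had a smaller range in FPKM than Slc16a7.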

How the data were processed

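The deposited values are FPKM in 3 libraries. The series' design text, part of the labels, says that the authors obtained them from normalized fragment counts with a Perl script; how they normalized was not found in those labels. HISAT2 2.0.4, StringTie 1.3.0 and Rnor 6.0 appear in the submitters' processing notes with no role attached. The labels give each library its own animal number, but the exact p-values concern only these samples. By sign flips over 3 rats, p is 0.25 whenever all log2 ratios have the same sign, whatever their spread.

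Values were analysed in Python 3.11.15 on the log2(FPKM + 1) scale, on which low genes differ less than in FPKM, for the 14134 genes averaging at least 1 FPKM. A deviation is a gene's value minus its mean over 3 rats, and an offset is a gene's deviation minus the median deviation of a marker list. A count model was not used. Depth was read from low values, in genes below 0.2 FPKM in 2 rats. A constant between the 2 rats was chosen to give the most whole-number ratios. After this scaling, 88.5% to 90.4% of these same genes had values in a whole-number ratio (numbers to 8, tolerance 0.5%). The share by chance was not computed. The range and deviation steps were tested on simulated data with little noise and large planted changes, and the depth step on simulated counts. These tests check the code only. Fragments per kilobase cover counting error only.

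The members and lists were chosen with earlier results of these data known. Named genes were all members, the 3 genes with the highest mean in each pathway list and 2 in marker lists, and the 3 genes nearest to the leading member of each group; not all are reported. A symbol on several rows was read from the row with the highest mean. Alternatives were a pseudocount of 0.1, rescaling to a sum of 1000000 with or without mitochondrial genes, median-of-ratios scaling, minima of 5 FPKM or none, a fold of 1.5, and leaving out each rat.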

Additional observations from a re-analysis of the deposited data

How the results depend on the processing

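With 3 rats of 1 group, the ranges describe these libraries. Leaving out 1 rat, the number of members over 2-fold apart ran from 0 (without rat 35) to 4, and the share of all genes from 11.1% to 37.2%. The highest minus lowest median deviation ran from 0.27 to 0.55 for the endothelial and astrocytic genes, from 0.055 to 0.46 for the neuronal genes, the Slc2a3 row included, and from 0.16 to 0.59 for the others, each smallest without rat 35 or 70; the cause was not tested. The mean ratio in log2(FPKM + 1) stayed positive in every such case, at 2.95 to 3.52 for Slc16a1 over Slc16a7, 2.92 to 3.79 for Slc16a1 over Slc16a3 and 2.87 to 3.14 for Bsg over its client carriers.

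At a threshold of 1.5-fold, 7 members and 67.1% of all genes were over the limit, because the limit is lower. Rescaling to a common sum raised the median gene by 0.80, 0.85 and 0.96 (log2), and without mitochondrial genes by 1.33, 1.14 and 1.38. Under a pseudocount of 0.1 and these rescalings the range of Slc2a3 was 1.08, 0.33 and 0.43 in place of 0.17. Apart from this, from the call of Slc16a7 and from the highest rat of Bsg, the scalings and minima kept the order of highest and lowest rat of each member and moved no range or offset by more than its SD. Without rat 35, 17 of 31 results moved, and without rat 70, 12. Here a count or share moved if it changed over 1.5-fold, and a pair ratio was judged by its sign alone. All other results moved if they changed by more than their SD. The offset of Slc2a8 from neuronal markers then had a range of 1.37 (without rat 35) in place of 5.01. No paired analysis was possible because there is 1 group.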
